A study of Mus musculus with 12 samples.

Results

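The genes described here are 10 brakes of the cell cycle: 7 inhibitors of cyclin-dependent kinases (CDKs) and 3 members of the retinoblastoma family. They were taken from the testis RNA-seq table by symbol, and all 10 of 10 symbols matched 1 row each among 55487 genes. All 10 also passed the filter on low values (a normalized count of 10 or more in 3 or more libraries), which 22384 genes passed. The samples are male germ cells, called gonocytes in the labels, isolated from testes of Mvh-Venus transgenic mice, in which germ cells carry a fluorescent marker. The 4 stages, with 3 libraries for each, are E13.5 and E16.5 (days of embryonic life), P0 (birth) and P3 (3 days later). All 12 samples are wild type by title and source name, whereas the genotype tag reads Morc1 (+/-) at E13.5 and P0 and Morc1 (-/-) at E16.5 and P3. The 4 groups were therefore formed by stage alone. Between any stages with different tags, a genotype difference and a stage difference cannot be told apart. The labels do not say whether libraries of a stage came from separate animals, so p-values measure the spread between these libraries, which may be technical.

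Cyclin-dependent kinases drive the cell cycle when bound to a cyclin. Small proteins of the INK4 and Cip/Kip families hold them back: the INK4 proteins (encoded by Cdkn2a, Cdkn2b, Cdkn2c and Cdkn2d) bind CDK4 and CDK6 and keep cyclin D off, and the Cip/Kip proteins (encoded by Cdkn1a, Cdkn1b and Cdkn1c) bind cyclin-CDK complexes, CDK2 among them. When CDKs are held back, the pocket proteins encoded by Rb1, Rbl1 and Rbl2 stay bound to E2F transcription factors and repress the genes needed for DNA replication and mitosis. Male germ cells of the mouse stop dividing in fetal life, remain arrested around birth and resume division in the days after it. E16.5 and P0 are accordingly called the arrested stages here, and E13.5 and P3 the proliferating stages. Much of the control of these proteins is known to act on translation, phosphorylation and degradation, which transcript counts do not measure.

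Values are normalized counts, read counts divided by 1 size factor per library. Libraries held 40946616 to 51533747 recovered reads. The P0 libraries stood apart in scaling and in complexity, with size factors of 1.94 ± 0.118 (SD, n = 3), against stage means of 0.939, 1.13 and 1.01 at E13.5, E16.5 and P3, and with 34207 to 34857 genes detected against 22678 to 22774 at E13.5. Scaling to equal library totals raised the median change over all genes by 0.69 (log2) at P0 against E16.5 and shifted it by -0.91 at P3 against P0, so directions are given below with the scaling under which they were lost. Morc1, the gene named in the series title, lay at 1621 to 1830 normalized counts at E13.5, 28328 to 32917 at E16.5, 7280 to 7708 at P0 and 10584 to 11129 at P3, and was thus not lower at the stages tagged (-/-) than at E13.5. Whether the counted exons lie outside a deleted part is not given in the sources used here. The 5 germ cell markers together summed to 133680 to 142170 at P0 and to 226310 to 257750 in libraries of the other stages. These sums carry the size factors of the file, which were highest at P0, and were not computed with equal library totals. The lower sum at P0 is thus not shown to be a lower share of the reads. Markers of other testis cells were present at lower levels, and are given with the results for Cdkn1c. In bulk samples, fewer cells of a type and less RNA per cell cannot be told apart.

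Levels of different genes were compared per kilobase (kb) of annotated exon. Over all 12 libraries Cdkn1c was the most abundant of the 10 genes, with a mean of 1563 normalized counts per kb, above 92.3% of the genes tested. Cdkn2d followed with 782.5, then Cdkn2b with 355.6, Cdkn1a with 279.9, Rb1 with 254.8 and Rbl1 with 149.4. Cdkn2c, at 84.99, and Cdkn2a, at 70.2, lay near the middle of all genes tested, and Cdkn1b and Rbl2 were the lowest, at 24.38 and 21.01 per kb. Even the lowest value of the set, Cdkn2a in 1 library, rested on 37 reads. The table of the authors thus held a readable signal for each of the 10 genes at every stage.

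By limma's F-test over the 4 stages all 10 genes passed (Benjamini-Hochberg adjusted p at most 0.0135), where 95.2% of all genes tested did. No gene of the set lay above every proliferating library in every arrested library, a pattern shown by 19.1% of the genes tested. Cdkn1a and Rbl1 showed the opposite pattern, lying below every proliferating library in every arrested library, as did 19.7% of the genes tested. In the remaining 8 genes arrested and proliferating libraries overlapped. The plot of counts by library shows these shapes. With libraries scaled to equal totals, Cdkn2b and Rbl2 did lie above the proliferating libraries in all arrested ones, at 595.2 to 846.5 against 263.4 to 424.9 for Cdkn2b, when 28.5% of all genes did so. Cdkn1a and Rbl1 lay below under that scaling too, when 9.44% of all genes did.

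**Figure D1:**
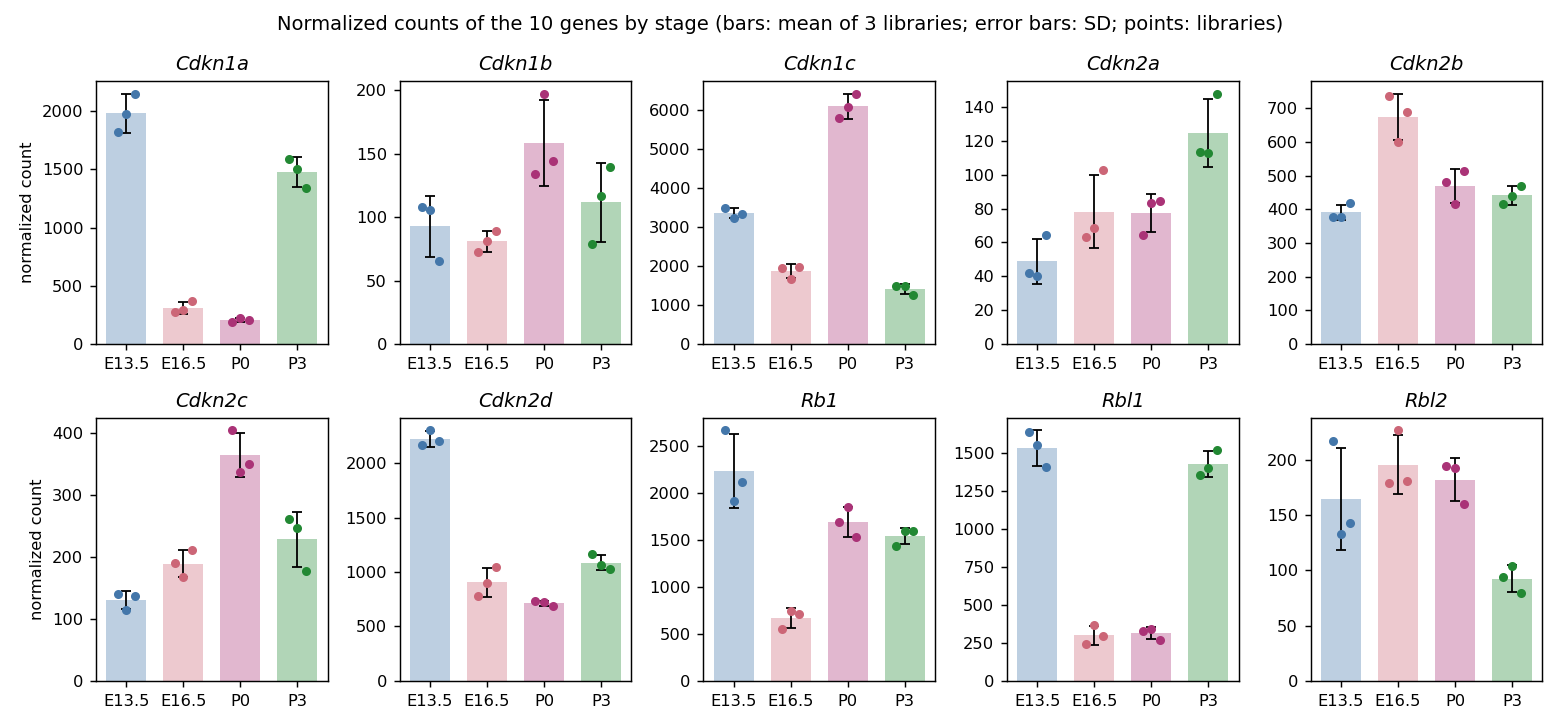
Normalized counts (linear axis from 0, a separate scale for each gene) of the 10 genes at the 4 stages, with bars for the mean of 3 libraries, error bars for the SD and points for libraries. Cdkn1a and Rbl1 are low at both E16.5 and P0, Cdkn1c and Cdkn2c are highest at P0, Cdkn2b is highest at E16.5 and Rb1 is lowest at E16.5.

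Cdkn1a encodes p21, a broad CDK inhibitor best known as a target of the p53 tumour suppressor. Its normalized counts were 1817, 1972 and 2149 in the 3 libraries of E13.5, and 275.8, 293.8 and 372.8 in those of E16.5. P0 gave 191.6, 220.6 and 209.0, and P3 gave 1589, 1506 and 1336. No 2 stages overlapped, and the order was E13.5, P3, E16.5 and P0 from high to low. In limma's moderated test the log2 fold change was -2.66 at E16.5 against E13.5 (SE 0.122, adjusted p 3.67e-12), and 2.83 at P3 against P0 (SE 0.122, adjusted p 2.94e-12). Between the arrested stages it fell by a further 0.59 at P0 (adjusted p 0.000525), a difference that was absent with equal library totals (log2 fold change 0.07, adjusted p 0.645). Trp53, which encodes p53, was also lowest at E16.5 and P0, with means in stage order of 17439 ± 840, 1072 ± 114, 1030 ± 128 and 4058 ± 103 (SD, n = 3 each). Mdm2, which encodes the ubiquitin ligase that removes p53 and is itself a p53 target, was not lowest at both arrested stages: its means were 14332, 17195, 10721 and 12352 in the same order. An antisense gene, AC167363.2, overlaps an exon of Cdkn1a and held a mean of at most 3.19 normalized counts at any stage.

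Cdkn1b encodes p27, the inhibitor whose abundance is mainly set by the rate at which it is degraded. It was a low transcript, at 107.7, 105.6 and 65.2 normalized counts at E13.5 and 72.5, 80.9 and 89.4 at E16.5. P0 libraries held 134.2, 197.3 and 143.8, and P3 libraries 78.5, 116.9 and 139.7. Its libraries at E13.5 and E16.5 overlapped, and the log2 fold change between them was -0.16 (SE 0.261, adjusted p 0.569). At P0 it was higher than at E16.5 by 0.94 on the log2 scale (SE 0.261, limma adjusted p 0.00504) without overlap, under every alternative tried. The highest P3 library overlapped the lowest of P0, and P3 differed from P0 by -0.52 (SE 0.261, adjusted p 0.0813). That comparison passed without P3 library 4 (-0.70, adjusted p 0.0362) and under each other scaling. It was -0.69 with TMM factors (adjusted p 0.0252), -0.96 with median-of-ratios factors (adjusted p 0.00323) and -1.36 with equal library totals (adjusted p 0.000266). P3 against E16.5 (0.43, adjusted p 0.158) passed without P3 library 1 (0.66, adjusted p 0.0417). The call of P0 above E13.5 (log2 fold change 0.78, adjusted p 0.0107) was lost without E13.5 library 4 (adjusted p 0.0631) and without P0 library 3 (adjusted p 0.0639).

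Cdkn1c encodes p57, an imprinted inhibitor that accompanies differentiation in many embryonic tissues. E13.5 libraries held 3498, 3238 and 3353 normalized counts, and E16.5 libraries 1968, 1674 and 1977. P0 libraries held 5790, 6074 and 6429, and P3 libraries 1498, 1485 and 1259. The 4 stages did not overlap, P0 being highest and P3 lowest. Between the arrested stages Cdkn1c rose by 1.71 on the log2 scale (SE 0.0873, limma adjusted p 6.32e-11), and it fell by 2.11 from P0 to P3 (SE 0.0873, adjusted p 1.82e-12). It had already fallen by 0.85 from E13.5 to E16.5 (adjusted p 1.31e-07). All 6 pairwise calls for Cdkn1c held under every scaling, tool, filter and left-out library.

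Other cell types of the testis also transcribe Cdkn1c, and their markers moved with stage. The 5 peritubular and stromal markers summed to between 137.8 and 149.9 normalized counts in E13.5 libraries, 1065 and 1301 in E16.5, 2123 and 2272 in P0, and 922.1 and 1049 in P3 libraries. The 6 Leydig markers summed to between 729.8 and 939.5 in E13.5 libraries, 812.1 and 8184 in E16.5, 1494 and 7281 in P0, and 499.1 and 527.4 in P3 libraries. In P0 libraries 1, 3 and 4 the Leydig sum was 7281, 3914 and 1494, and the stromal sum 2191, 2123 and 2272. Cdkn1c was 5790, 6074 and 6429 there. In E16.5 libraries 1, 3 and 4 the Leydig sum was 812.1, 1512 and 8184, and the stromal sum 1301, 1151 and 1065. Cdkn1c was 1968, 1674 and 1977 there. The 6 Sertoli markers other than Dmrt1, which germ cells also express and which was left out after its values were seen, summed to 1046 to 2612 in the libraries of E13.5, E16.5 and P3 and 3009 to 5521 at P0. The 4 mast cell markers other than Kit, a germ cell gene left out likewise, were all at 0 at E13.5, summed to 22.32 to 35.62 at E16.5 and to 1178 to 2698 at P0, and at P3 reached 304.4 in library 3 against at most 3.876 in the others. The 5 blood cell markers summed to between 33.65 and 385.2 in E13.5 libraries, 242.4 and 1024 in E16.5, 394.3 and 1199 in P0, and 77.52 and 214.6 in P3 libraries. The 4 macrophage and endothelial markers that remained without Cd68 and Pecam1, left out likewise, summed to between 13.06 and 33.78, 161.3 and 182.2, 197.4 and 311.2, and 84.31 and 160.9. The stromal sum was thus highest in the P0 libraries, as were the Sertoli, mast cell and macrophage and endothelial sums without the left-out markers. With those markers kept, these 3 sums were not highest at P0. The Sertoli sum was then 8571 to 11061 at P0 and 20866 to 22100 at P3. The mast cell sum was 2387.2 to 3929.6 at P0 and 6228.7 to 8113.1 at E13.5. The macrophage and endothelial sum was 743.9 to 903.8 at P0 and 4412.5 to 5150.1 at E13.5. The part of RNA from these cells in the P0 values of Cdkn1c, Cdkn2c and Cdkn1b was not tested.

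Within the Cip/Kip family the makeup changed with stage, a comparison inside each library that no scaling can move. Cdkn1c made up 74.1% ± 1.91 of the family's counts per kb before arrest at E13.5, 89.6% ± 1.35 at E16.5, 97.0% ± 0.347 at birth and 61.1% ± 0.776 by P3 (SD, n = 3). Cdkn1a made up 25.0% ± 2.07, 8.63% ± 1.17, 1.89% ± 0.107 and 36.7% ± 0.652 in the same order. The share of Cdkn1b was at most 2.996% in any library. Shares of Cdkn1a and of Cdkn1c did not overlap between any stages. Per kb, Cdkn1c exceeded Cdkn1a by a ratio of 51.4 ± 3.02 at P0 and of 1.67 ± 0.0434 at P3.

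**Figure D2:**
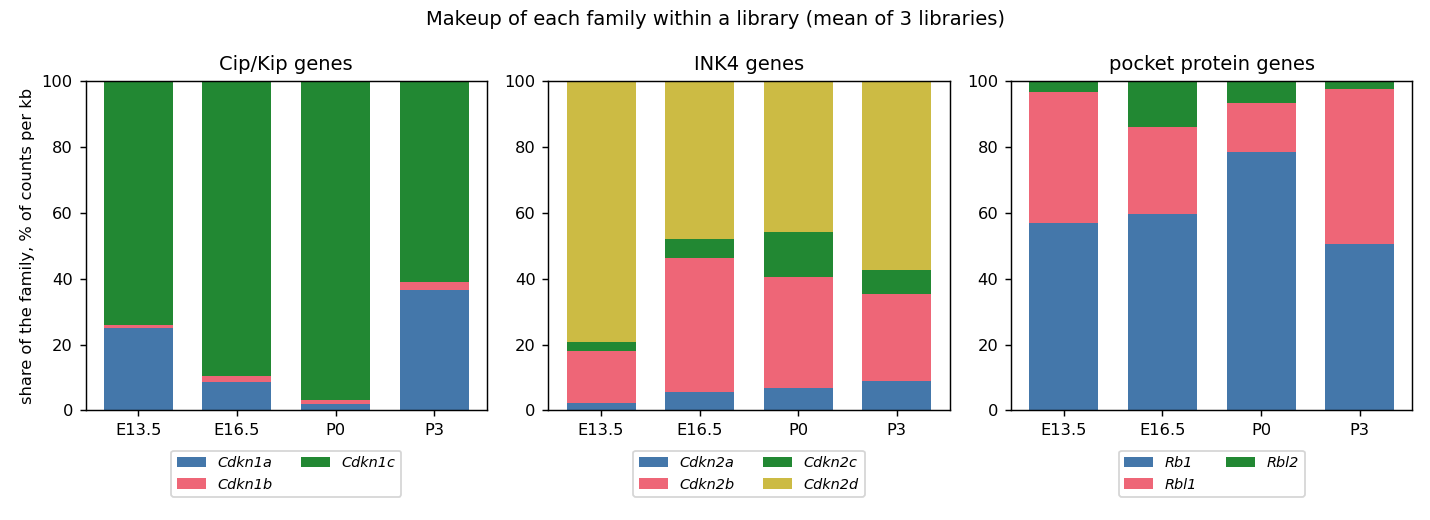
Share of each gene (%) in the counts per kb of its family, as the mean of 3 libraries at each stage, for the Cip/Kip, INK4 and pocket protein genes. Cdkn1c takes 97.0% of the Cip/Kip counts at P0, Cdkn2d falls from 79.2% of the INK4 counts at E13.5 to 47.9% at E16.5 but stays the largest share, and Rb1 takes 78.6% of the pocket protein counts at P0.

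Among the INK4 genes, Cdkn2d, Cdkn2b and Cdkn2c each had a course of their own. Cdkn2d encodes p19, and was highest before arrest: 2164, 2301 and 2201 normalized counts at E13.5, against 776.8, 894.5 and 1042 at E16.5. P0 libraries held 731.0, 723.8 and 687.3, and P3 libraries 1166, 1066 and 1027. The difference at E16.5 was -1.31 on the log2 scale (SE 0.1002, adjusted p by limma 3.05e-09), and E13.5 lay above all other libraries. The later differences were smaller and less firm. The rise of 0.60 at P3 against P0 (adjusted p 4.01e-05) turned to -0.24 with equal library totals (adjusted p 0.0582), and the fall at P0 against E16.5 (-0.33, adjusted p 0.00907) turned to 0.33 (adjusted p 0.0134). With median-of-ratios factors the former was 0.16 (adjusted p 0.135). The latter also missed the threshold without E16.5 library 4 (adjusted p 0.0549), with TMM factors (adjusted p 0.0836) and with median-of-ratios factors (adjusted p 0.524). The call of P3 above E16.5 (0.27, adjusted p 0.0236) was lost under every other scaling: TMM factors gave 0.22 (adjusted p 0.0731), median-of-ratios factors 0.09 (adjusted p 0.422) and equal library totals 0.09 (adjusted p 0.454). It was also lost without E16.5 library 1 (adjusted p 0.126) or P3 library 1 (adjusted p 0.0957) and in a fit of only these stages (adjusted p 0.0572).

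Cdkn2b encodes p15, an inhibitor known to be induced by transforming growth factor beta. It was 377.9, 377.6 and 417.5 at E13.5 and rose to 735.7, 599.7 and 687.8 at E16.5. Values of 480.4, 414.6 and 514.5 at P0 and 415.7, 439.0 and 470.7 at P3 overlapped each other. E16.5 thus stood above all libraries of the other stages. The log2 fold change at E16.5 against E13.5 was 0.78 (SE 0.118, limma adjusted p 1.24e-05), and P3 was below E16.5 by -0.61 (SE 0.118, adjusted p 0.000234), both under every alternative. The difference between the arrested stages (-0.52 at P0, adjusted p 0.00113) became -0.26 with median-of-ratios factors (adjusted p 0.0663) and 0.14 with equal library totals (adjusted p 0.312). P3 against P0 was -0.08 (adjusted p 0.523), but -0.52 with median-of-ratios factors (adjusted p 0.000846) and -0.92 with equal library totals (adjusted p 4.2e-06). P3 against E13.5 was 0.18 (adjusted p 0.197), while equal library totals gave 0.50 (adjusted p 0.00167). P0 against E13.5 was at the edge of the test (0.26, adjusted p 0.0493): edgeR gave 0.0618, and the call was lost without E13.5 library 1, E13.5 library 3, E16.5 library 4, P0 library 1, P0 library 4, P3 library 1 or P3 library 3 (adjusted p 0.0523 to 0.182).

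Cdkn2c encodes p18. E13.5 libraries held 140.4, 114.3 and 136.7 normalized counts and E16.5 libraries 189.9, 167.4 and 211.3. P0 libraries held 404.7, 337.5 and 350.9, and P3 libraries 260.7, 247.5 and 178.1. P0 lay above all other libraries and E13.5 below all others, while E16.5 and P3 overlapped. It rose by 0.53 at E16.5 (SE 0.174, limma adjusted p 0.00998) and by 0.94 at P0 against E16.5 (SE 0.174, adjusted p 0.000188). It fell by 0.68 from P0 to P3 (adjusted p 0.00195). P3 against E16.5 was 0.26 (adjusted p 0.199) and passed only without P3 library 4 (adjusted p 0.0373). The other calls for Cdkn2c held under every alternative.

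Cdkn2a encodes 2 unrelated proteins from alternative starts, p16 of the INK4 family and p19Arf, which stabilises p53; counts per gene cannot separate them. The transcript was sparse, with 42.2, 40.3 and 64.1 normalized counts in E13.5 libraries and 63.0, 68.8 and 102.9 in E16.5 libraries. P0 libraries held 64.2, 83.1 and 84.5, and P3 libraries 113.4, 112.9 and 147.8. The P3 libraries lay above all others. P3 exceeded E13.5 by 1.35 on the log2 scale (SE 0.266, limma adjusted p 0.000240) under every alternative. P0 against E16.5 gave 0.01 (SE 0.266, adjusted p 0.988), and 0.66 with equal library totals (adjusted p 0.0431). The remaining calls were unstable. E16.5 against E13.5 (0.67, adjusted p 0.0302) was lost without E13.5 library 1 or 3 or E16.5 library 4 (adjusted p 0.0817 to 0.151) and in a fit of only these stages (adjusted p 0.0671). P0 against E13.5 (0.67, adjusted p 0.0268) was lost without E13.5 library 1 or 3 or P0 library 3 or 4 (0.0740 to 0.0879). P3 against E16.5 (0.69, adjusted p 0.0301) was lost without E16.5 library 1 or 3 or P3 library 4 (0.0875 to 0.110), with median-of-ratios factors (0.51, adjusted p 0.103) and with equal library totals (0.51, adjusted p 0.111). P3 against P0 (0.68, adjusted p 0.0282) was lost without P0 library 1 or P3 library 4 (0.104 to 0.107), with TMM factors (0.51, adjusted p 0.0960) and with median-of-ratios factors (0.25, adjusted p 0.410), and turned to -0.15 with equal library totals (adjusted p 0.628).

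The balance within the INK4 family followed from these courses. Cdkn2d made up 79.2% ± 1.63 of the family's counts per kb in E13.5 libraries, 47.9% ± 4.26 in E16.5, 45.7% ± 2.46 in P0 and 57.5% ± 2.46 in P3 libraries (SD, n = 3). Cdkn2b made up 15.8% ± 0.827, 40.7% ± 4.76, 34.0% ± 2.71 and 26.5% ± 2.19. E16.5 and P0 overlapped for Cdkn2d and did not overlap for Cdkn2b, with 37.4% to 46.1% against 31.2% to 36.7%. Cdkn2c was 13.7% ± 1.04 at P0 and at most 7.87% in any library of the other stages. Per kb the 4 INK4 genes together came to 0.150 ± 0.00368 of the sum of their targets Cdk4 and Cdk6 in E13.5 libraries, 0.201 ± 0.0275 in E16.5, 0.243 ± 0.00782 in P0 and 0.170 ± 0.00350 in P3 libraries. Libraries of the arrested stages, at 0.181 to 0.248, lay above those of the proliferating stages, at 0.147 to 0.174. The INK4 sum itself was 1197 ± 110 per kb at E16.5 and 1783 ± 42.0 at E13.5, so the sum of Cdk4 and Cdk6, of which Cdk4 made up at least 98.8%, was lower by more. For the Cip/Kip genes the ratio to Cdk2, Cdk4 and Cdk6 was 0.654 ± 0.0445 at P0 and 0.117 to 0.175 in all other libraries, so the 2 arrested stages did not share it.

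Rb1 encodes the retinoblastoma protein, which binds the activating E2F factors. E13.5 libraries held 2664, 1909 and 2114 normalized counts, and E16.5 libraries 551.6, 746.7 and 715.5. P0 libraries held 1687, 1854 and 1526, and P3 libraries 1437, 1596 and 1589. E16.5 lay below every other library, and P0 and P3 overlapped. The log2 fold change was -1.73 at E16.5 against E13.5 (SE 0.129, limma adjusted p 2.09e-09) and 1.34 at P0 against E16.5 (SE 0.129, adjusted p 1.38e-07), both under every alternative. P3 differed from P0 by -0.13 (SE 0.129, adjusted p 0.370), but by -0.30 with TMM factors (adjusted p 0.0405), -0.57 with median-of-ratios factors (adjusted p 0.000512) and by -0.97 with equal library totals (adjusted p 6.6e-06). P0 was below E13.5 by -0.39 (adjusted p 0.00984), a call lost without E13.5 library 1 (adjusted p 0.0750), with TMM factors (-0.19, adjusted p 0.175) and with median-of-ratios factors (0.089, adjusted p 0.504), and turned to 0.78 with equal library totals (adjusted p 4.7e-05). The genes Lpar6 and Rcbtb2 lie on the opposite strand and share exon sequence with Rb1, and the strand setting of the counting is not given in the sources used here. In stage order, Rcbtb2 held means of 4935 ± 73.1, 1317 ± 35.9, 1331 ± 134 and 1271 ± 33.0 normalized counts (SD, n = 3 each). It was thus lower at E16.5 than at E13.5, as Rb1 was, and close to level from E16.5 to P0, where Rb1 rose. Lpar6 had means of at most 105.3. Without strand, reads of Rb1 and of these genes in the shared sequence cannot be told apart, and their part in the fall of Rb1 at E16.5 was not tested.

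Rbl1 encodes p107, a pocket protein that is itself a classical E2F target and accumulates in cycling cells. E13.5 libraries held 1642, 1554 and 1410 normalized counts, and E16.5 libraries 241.4, 367.3 and 294.4. P0 libraries held 331.6, 341.8 and 271.7, and P3 libraries 1360, 1403 and 1524. The arrested stages overlapped each other, as did the proliferating stages, and the groups were far apart. The log2 fold change was -2.37 at E16.5 against E13.5 (SE 0.137, limma adjusted p 7.80e-11), and 2.18 at P3 against P0 (SE 0.137, adjusted p 3.10e-10). P0 differed from E16.5 by 0.08 (SE 0.137, adjusted p 0.637), and P3 from E13.5 by -0.10 (SE 0.137, adjusted p 0.523). The former passed with median-of-ratios factors, at 0.34 (adjusted p 0.0346), and with equal library totals, at 0.74 (adjusted p 0.000223).

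Rbl2 encodes p130, the pocket protein that dominates in resting cells as part of the DREAM repressor complex. It was low, with 217.4, 132.8 and 143.0 normalized counts in E13.5 libraries and 179.4, 226.9 and 181.2 in E16.5 libraries. P0 libraries held 194.2, 192.4 and 159.8, and P3 libraries 94.0, 104.1 and 80.0. The first 3 stages overlapped, and P3 lay below all of them. The difference at P3 against P0 was -0.97 on the log2 scale (SE 0.207, adjusted p by limma 0.000456), and P3 was below E13.5 by -0.79 (adjusted p 0.00264), both under every alternative. E16.5 differed from E13.5 by 0.28 (SE 0.207, adjusted p 0.226); without E13.5 library 1 this was 0.50 (adjusted p 0.0349), median-of-ratios factors gave 0.50 (adjusted p 0.0322), and equal library totals gave 0.78 (adjusted p 0.00204). P0 against E13.5 (0.18, adjusted p 0.430) passed with median-of-ratios factors (0.65, adjusted p 0.00644) and with equal library totals (1.34, adjusted p 1.1e-05). P0 against E16.5 (-0.10, adjusted p 0.691) became 0.56 with equal library totals (adjusted p 0.0206). Aktip and Gm45464 overlap exons of Rbl2 on the other strand and share 17.1% of its 50-base transcript words. Aktip held means of 1815 to 3447 normalized counts across stages. Without the strand setting, reads of Rbl2 and of these genes in the shared sequence cannot be told apart. Their part in the counts of Rbl2 was not tested.

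Per kb, Rb1 made up 56.9% ± 3.14 of pocket protein counts in E13.5 libraries, 59.5% ± 2.22 in E16.5, 78.6% ± 0.870 in P0 and 50.5% ± 1.01 in P3 libraries (SD, n = 3). Rbl1 made up 39.8% ± 3.53, 26.6% ± 1.58, 14.7% ± 0.577 and 47.0% ± 1.27. Rbl2 was 13.9% ± 1.38 at E16.5 and 6.74% ± 0.321 at P0, above its 3.31% ± 0.479 at E13.5 and 2.43% ± 0.373 at P3, with no overlap between arrested and proliferating libraries. The ratio of Rb1 to Rbl1 was 1.44 ± 0.201, 2.24 ± 0.200, 5.36 ± 0.266 and 1.08 ± 0.0508 in stage order, and was 2.025 or more in every arrested library and 1.616 or less in every proliferating one. The 3 genes together came to 648.5 ± 84.4 per kb in E13.5 libraries, 187.7 ± 30.1 in E16.5, 357.4 ± 35.4 in P0 and 506.9 ± 26.1 in P3 libraries.

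Promoters of 8 of the 10 genes, 11 in all, were found in the RefSeq table for GRCm38.p6, as windows from 250 bases before to 50 after a transcript start. They were searched on both strands for 4 words bound by E2F factors. These were TTCCCGC (in 4.6% of all promoters), TTGGCGC (in 2.45%), TTCGCGC (in 1.59%) and TTGCCGC (in 1.81%). The search also took 2 words of the CHR element of cell cycle genes, TTTGAA (in 17.9% of all promoters) and TTTAAA (in 13.2%), and no word contains another. An E2F word occurred in 3 promoters, those of Rbl1, Cdkn2a and Cdkn2c, and in 9.57% of all 32851 promoters. The sequences are shown because they are the 3 that hold the word: Rbl1 was low in arrest under every scaling and Cdkn2c was highest at P0, whereas Cdkn2a had its highest mean at P3 as deposited and at P0 with equal library totals. Each is printed 5′ to 3′ on the gene's strand, with the E2F word in capitals, and the first 2 stop before annotated exon sequence. For Cdkn2c, whose word lies in annotated exon sequence, 30 bases are given. The Rbl1 stretch is chr2:157204535-157204784, where the word starts 17 bases before the transcript start; that of Cdkn2a is chr4:89294654-89294869, with the word 98 bases before the upstream start; and that of Cdkn2c is chr4:109666763-109666792, with the word 25 bases before the start.
Rbl1: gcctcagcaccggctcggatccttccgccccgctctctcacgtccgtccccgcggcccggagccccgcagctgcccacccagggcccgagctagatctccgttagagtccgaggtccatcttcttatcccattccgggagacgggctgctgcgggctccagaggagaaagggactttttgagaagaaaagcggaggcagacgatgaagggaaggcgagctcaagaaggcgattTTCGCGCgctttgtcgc
Cdkn2a: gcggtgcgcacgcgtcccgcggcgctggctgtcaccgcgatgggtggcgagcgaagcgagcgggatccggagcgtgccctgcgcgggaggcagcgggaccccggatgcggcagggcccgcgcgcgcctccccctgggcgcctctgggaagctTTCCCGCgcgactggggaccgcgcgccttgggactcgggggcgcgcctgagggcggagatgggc
Cdkn2c: ggggcccggccTTCCCGCtcccgcggcgcc
A CHR word occurred in promoters of Cdkn1b, Cdkn2b and Rbl2, and in 27.6% of all promoters. The promoters of Cdkn1a and Cdkn2d held none of the 6 words in these windows. A match is a description of the letters and not a measured site.

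Entry into arrest split the set. At E16.5 against E13.5, 8 of the 10 genes passed the test, where 80.1% of all genes did: Cdkn2a, Cdkn2b and Cdkn2c rose (3 of 10, against 45.5% of all genes), and Cdkn1a, Cdkn1c, Cdkn2d, Rb1 and Rbl1 fell (5 of 10, against 34.6%). The median log2 fold change of the 10 genes was -0.51, against 0.31 for all genes tested. Between the arrested stages 7 of 10 passed, where 61% of all genes did, with Cdkn1b, Cdkn1c, Cdkn2c and Rb1 higher at P0 (background 27.6%) and Cdkn1a, Cdkn2b and Cdkn2d lower (background 33.4%). The last 3 differences did not keep their sign with equal library totals. At P3 against P0 again 7 of 10 passed, where 76.5% of all genes did, with Cdkn1a, Cdkn2a, Cdkn2d and Rbl1 higher (background 40.1%) and Cdkn1c, Cdkn2c and Rbl2 lower (background 36.4%). The shares of the set that passed are near those of all genes and are no result about the set. The plot of log2 fold changes by consecutive comparison shows that the genes did not move as a block.

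**Figure D3:**
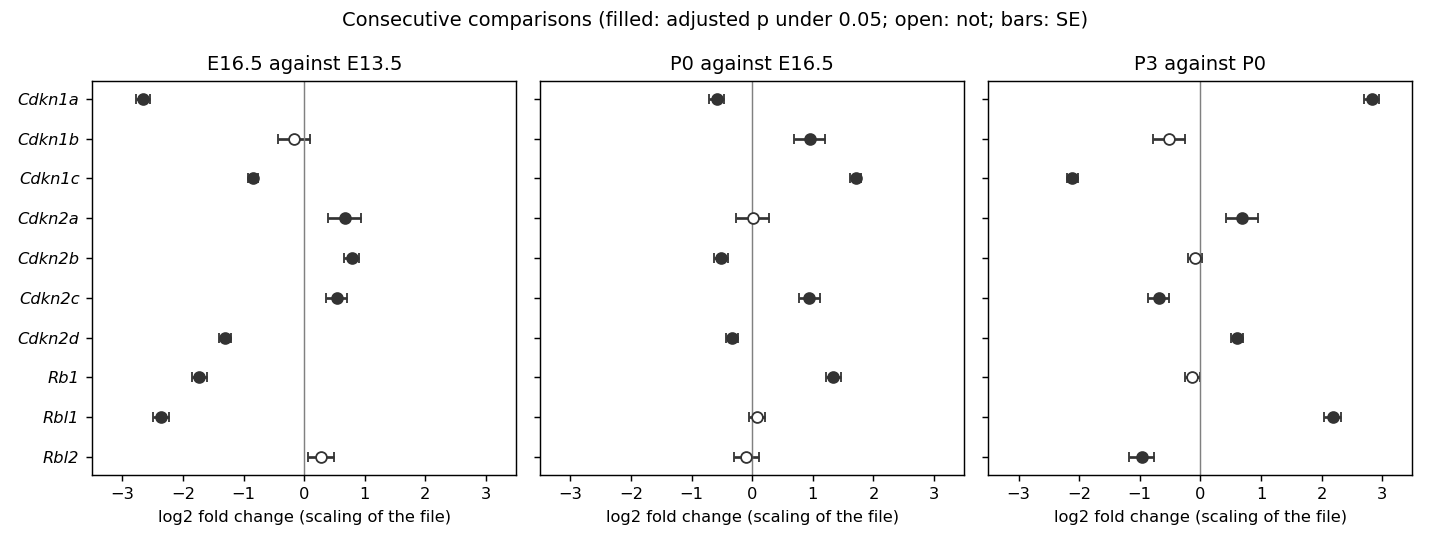
Log2 fold changes (horizontal axis) of the 10 genes for the steps from E13.5 to E16.5, from there to P0 and from P0 to P3, with bars for the SE, filled points for adjusted p under 0.05 and open points for the rest. Cdkn1a and Rbl1 lie at -2.66 and -2.37 in the first comparison and at 2.83 and 2.18 in the last, while Cdkn1c lies at 1.71 and then -2.11 in the later comparisons.

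The comparisons within 1 genotype tag gave the same kind of split. At P0 against E13.5, both tagged (+/-), 9 of 10 passed, where 86.1% of all genes did: Cdkn1b, Cdkn1c, Cdkn2a, Cdkn2b and Cdkn2c were higher (background 45.7%) and Cdkn1a, Cdkn2d, Rb1 and Rbl1 lower (background 40.5%). Without E13.5 library 1 this count was 6, because Cdkn2a, Cdkn2b and Rb1 no longer passed. At P3 against E16.5, both tagged (-/-), 8 of 10 passed, where 69.5% did: Cdkn1a, Cdkn2a, Cdkn2d, Rb1 and Rbl1 were higher at P3 (background 34.2%) and Cdkn1c, Cdkn2b and Rbl2 lower (background 35.2%). The proliferating stages also differed from each other. At P3 against E13.5, 7 of 10 passed, where 70.4% did, with Cdkn2a and Cdkn2c higher at P3 (background 39.2%) and Cdkn1a, Cdkn1c, Cdkn2d, Rb1 and Rbl2 lower (background 31.2%). With equal library totals Cdkn1a (-0.09, adjusted p 0.561) and Rb1 (-0.19, adjusted p 0.218) no longer passed. Cdkn1c fell most there, by 1.25 on the log2 scale (SE 0.0873, limma adjusted p 1.43e-09).

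The arrested stages were compared as a group by the mean of E16.5 and P0 against the mean of E13.5 and P3. Each side holds a stage of each genotype tag, which cancels only a tag effect that is equal in the fetal and postnatal stages. A tag effect that differs between fetal and postnatal stages cannot be told apart from arrest in this contrast. Of the 10 genes 8 passed, where 84.2% of all genes did, 4 higher in arrest (Cdkn1c, Cdkn2b, Cdkn2c and Rbl2, against a background of 45%) and 4 lower (Cdkn1a, Cdkn2d, Rb1 and Rbl1, against 39.2%). The higher ones changed by 0.43 to 0.63 on the log2 scale, and the lower ones reached -2.74 for Cdkn1a (SE 0.0862, limma adjusted p 2.21e-14) and -2.27 for Rbl1 (SE 0.0970, adjusted p 9.73e-13). Cdkn1c passed with 0.63 although its E16.5 libraries lay below those of E13.5. Cdkn1b and Cdkn2a gave 0.18 (SE 0.185, adjusted p 0.377) and -0.01 (SE 0.188, adjusted p 0.968). With equal library totals Cdkn2a became 0.65 (adjusted p 0.00547), Cdkn1b 0.85 (adjusted p 0.000664) and Rb1 -0.13 (adjusted p 0.222), and with median-of-ratios factors Cdkn1b became 0.51 (adjusted p 0.0178). The median of the set was 0.08, against 0.15 for all genes tested.

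**Figure D4:**
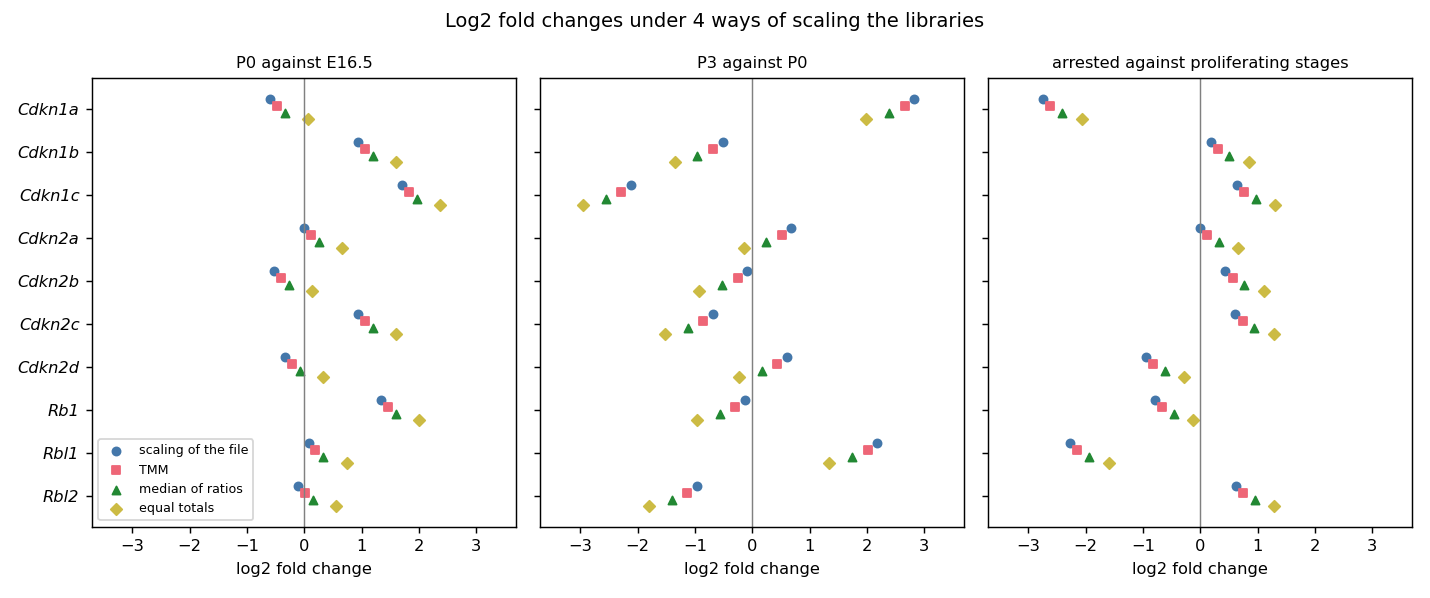
Log2 fold changes (horizontal axis) of the 10 genes under the scaling of the file, TMM factors, median-of-ratios factors and equal library totals, for P0 against E16.5, P3 against P0 and the arrested against the proliferating stages. Every other scaling shifts the genes together, to the right in the outer panels and to the left in the middle one. Cdkn2d and Cdkn2a cross 0 with equal totals at P3 against P0.

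The partners and targets of the 10 genes, taken from lists of the pathway, moved more uniformly in the same contrast. Of all genes tested, 39.2% were lower in it and 45% higher. With equal library totals, 5053 of 23221 genes were lower and 14586 higher. All 14 tested genes of replication and mitosis were lower in arrest, with a median log2 fold change of -2.79, among them Ccna2 (-3.52), Mki67 (-3.38) and Cdt1 (-1.62); Rrm2 is listed at 0 in every library and was not tested. They remained lower under all 4 scalings. Of 10 genes for E2F factors and their DP partners, 9 were lower in the contrast. Among these, Tfdp2 (-0.34) held 7936 to 9219 normalized counts at E16.5, above its libraries of E13.5 (7219 to 7697) and P3 (7179 to 7370). It was lower only at P0 (3581 to 4062), and its contrast became 0.33 with equal library totals. E2f8, an E2F that represses, changed by -4.63 on the log2 scale (SE 0.252, adjusted p 2.36e-11 by limma), Tfdp1 of -1.95 and E2f4, the usual partner of p130, of -1.94. E2f6, which represses without pocket proteins, gave 0.05 (adjusted p 0.450) but was not level across stages. Its libraries held 4370.5 to 4610.7 normalized counts at E13.5 and 4324.6 to 5285.1 at P0. They held 10413 to 12307 at E16.5 and 11313 to 11906 at P3, the stages tagged (-/-), a pattern that this contrast averages out. The list's median was -1.75, and with equal library totals 8 were lower and 2 higher.

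**Figure D5:**
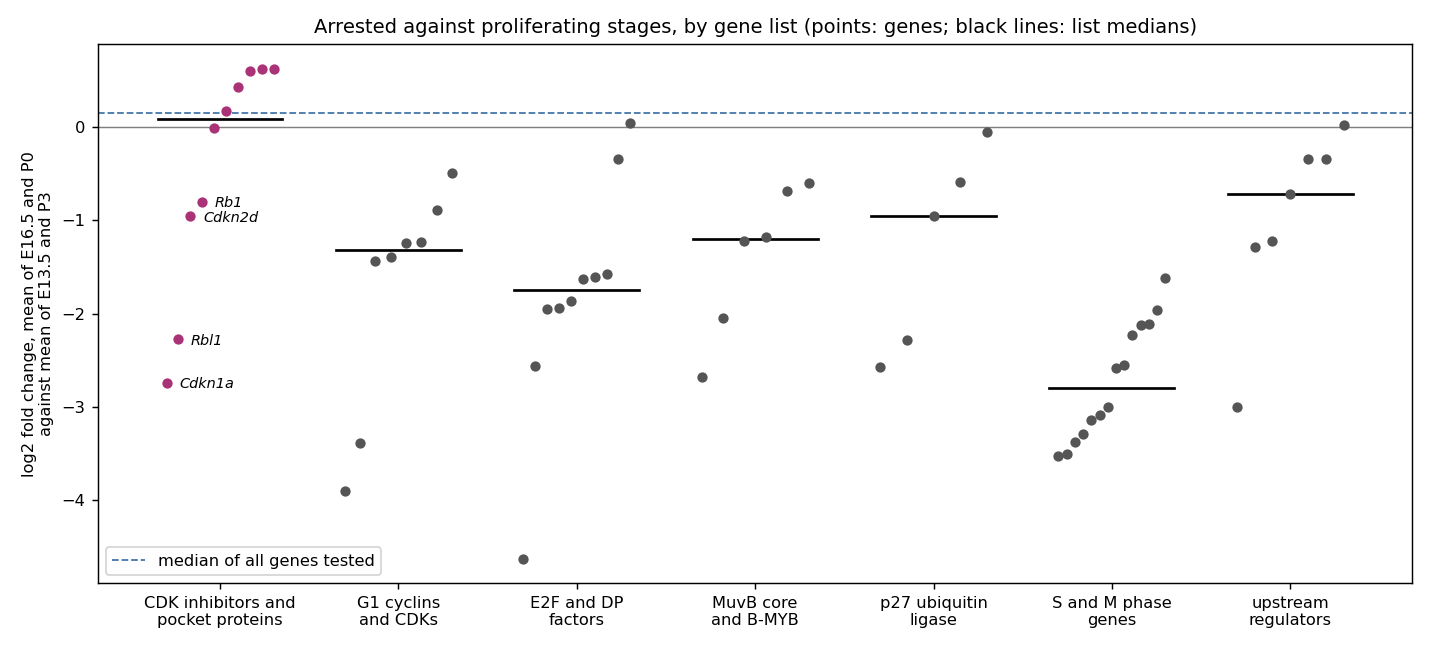
Log2 fold change of the mean of E16.5 and P0 against the mean of E13.5 and P3 (vertical axis) for each gene of the CDK inhibitor and pocket protein set and of 6 pathway lists, with black lines for list medians and a dashed line for the median of all genes tested. The set has a median of 0.08, with Cdkn1a and Rbl1 lowest, while the S and M phase genes have a median of -2.79.

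All 8 genes for G1 cyclins and CDKs were lower in the arrest contrast, where 39.2% of all genes were, with a median of -1.31. Ccne1, which encodes the CDK2 partner cyclin E1, had a log2 fold change of -3.39 and Ccnd1 of -3.90. Ccnd2 had the smallest at -0.49 (limma adjusted p 0.00017), which became 0.18 with equal library totals. It held 571.1 to 643.6 normalized counts at E13.5, 1567 to 2388 at E16.5, 5396 to 7604 at P0 and 35523 to 39378 at P3. Both arrested stages of Ccnd2 thus lay above E13.5. Cdk6 libraries overlapped between P0 (607.2 to 663.6) and P3 (546.6 to 724.8). The makeup of cyclin D, the partner that INK4 proteins keep off CDK4, shifted through the series: Ccnd3 made up 83.2% ± 1.87 of cyclin D counts per kb at E13.5, and 20.9% ± 1.43 at P3, and Ccnd2 4.92% ± 0.153 and 56.8% ± 1.30 (SD, n = 3). Ccnd2 was already 25.3% ± 5.26 at E16.5 and 53.9% ± 4.39 at P0. The sum of the INK4 genes per kb was 1.35 ± 0.0258 of the cyclin D sum in E13.5 libraries, 1.53 ± 0.102 in E16.5, 0.796 ± 0.0697 in P0 and 0.171 ± 0.00260 in P3 libraries. P0 and P3 thus had the lower ratios, and no 2 stages overlapped.

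The ligase that marks p27 for degradation was also lower in arrest, in 4 of its 5 genes (median -0.95, background 39.2%). Its substrate receptor Skp2 lay at 3087 to 3642 normalized counts in E13.5 libraries, 917.3 to 989.3 in E16.5, 592.7 to 870.9 in P0 and 4575 to 5104 in P3 libraries. Its arrested libraries all lay below its proliferating ones, as they did for 19.7% of the genes tested. Its log2 fold change in the contrast was -2.28 (SE 0.0792, adjusted p by limma 7.42e-14). The cofactor Cks1b had -2.58 (SE 0.0566, adjusted p 5.78e-16), whereas Skp1a gave -0.05 (adjusted p 0.461). With median-of-ratios factors or equal totals 1 of the 5 genes was called higher. Equal totals left 3 of the 5 called lower, with a list median of -0.27. For Cdkn1b itself the same contrast gave 0.18 (adjusted p 0.377).

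The MuvB core is the set of subunits that join p130 or p107 in the DREAM complex. Its list, which also holds B-MYB, was lower in arrest in all 6 genes (median -1.20, background 39.2%). With equal library totals 4 of 6 were lower. Mybl2, which replaces the pocket protein on that core in cycling cells, changed most (-2.68, SE 0.0620, limma adjusted p 9.36e-16), and Lin54, the DNA-binding subunit, least (-0.59). Of the 7 listed regulators upstream of the inhibitors, 6 were lower in arrest (background 39.2%), with a median of -0.72. With equal library totals 3 were lower and 3 higher, against 5053 and 14586 of 23221 genes. Not all that were lower in the contrast were low at both arrested stages. Foxo3 libraries overlapped between E16.5 (833.1 to 964.7) and E13.5 (741.0 to 874.9), and Bmi1 was highest at P0. Trp53 had the largest fall, at -3.01 (SE 0.0665, adjusted p 6.02e-16). Bmi1 and Ezh2 encode Polycomb proteins known to repress the Cdkn2a locus. Bmi1 had means of 4872, 2112, 7933 and 5530 in stage order, and Ezh2 of 6980, 1632, 1763 and 2435.

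Genes with the most similar profiles over the 12 libraries were found by the root-mean-square difference of centred log2 values, among 12089 genes whose overall mean was 100 or more. The nearest to Cdkn1a were Coa3 (0.124) and Pfn1 (0.134), and to Rbl1 Twf1 (0.115) and Neil3 (0.133), where the members' own root-mean-square deviations were 1.40 and 1.15. Cdkn1c was nearest to Aif1l (0.190) and Alox15 (0.190), and Cdkn2c to Inpp1 (0.188) and Ptgis (0.211). For Cdkn2b they were Uap1l1 (0.0858) and Otud3 (0.109), for Cdkn2d Efcab7 (0.117) and Pgrmc2 (0.118), for Rb1 Cpd (0.142) and Zdhhc2 (0.150), and for Rbl2 Uggt2 (0.133) and Sos2 (0.187). Cdkn1b, with Maml3 (0.210) and Bmpr2 (0.216), and Cdkn2a, with Map3k2 (0.258) and Bicd2 (0.259), had no profile as close relative to their own deviations of 0.451 and 0.539.

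By the GENCODE M21 annotation on GRCm38, the build named in the submitters' processing notes, Cdkn1a (ENSMUSG00000023067) lies on the + strand of chr17:29090976-29100727 and Cdkn1b (ENSMUSG00000003031) on the + strand of chr6:134920401-134925513. Cdkn1c (ENSMUSG00000037664) lies on the - strand of chr7:143458339-143461050, where 24.9% of its 50-base transcript words are shared with the antisense gene Gm44732, itself at a mean of at most 0.335 normalized counts at any stage. Cdkn2a (ENSMUSG00000044303) and Cdkn2b (ENSMUSG00000073802) are neighbours on the - strand of chromosome 4, at 89274471 to 89294653 and 89306299 to 89311039. Their highest means were at P3 and at E16.5, but with equal library totals both had their highest mean at P0. Cdkn2c (ENSMUSG00000028551) lies on the same chromosome at 109660876 to 109667189. Cdkn2d (ENSMUSG00000096472) lies on chr9:21288410-21291407, Rb1 (ENSMUSG00000022105) on chr14:73183673-73325822 and Rbl1 (ENSMUSG00000027641) on chr2:157145893-157204534, all on the - strand. Rbl2 (ENSMUSG00000031666) lies on the + strand of chr8:91070057-91123844. For Cdkn1b, Cdkn2a, Cdkn2b, Cdkn2c, Cdkn2d and Rbl1, no 50-base word of the transcripts occurs in a transcript of another gene.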

How the data were processed

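RNA was measured in 12 libraries of male germ cells (mouse; 4 stages, 3 libraries each), made with SMART-seq v4 and TruSeq mRNA kits per the labels' protocols. The authors deposited 1 table of signal values: the count of reads for a gene over the size factor of its library (RLE scaling, per the table's deposited name). The submitters' processing notes name bcl2fastq 2.20, cutadapt 1.18, HISAT2 2.1.0, featureCounts 1.5.2 and DESeq2 1.26.0, and the builds mm10 and GRCm38. The annotation release, the strand setting and how multiply mapped reads were treated are not given in the sources used here. Divided by the smallest value above 0 of its column, 100% of values came out whole (tolerance 0.001), which gave the read counts back.

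Columns were assigned to stages only, because their numbers (1, 3 and 4) differ from the titles' replicate numbers. Symbols matched 55141 of 55487 identifiers. For 22384 genes, limma 3.58.1 (R 4.3.3) was fitted to log2(normalized count + 1) (1 spread estimate over 4 stages, 8 residual degrees of freedom), with Benjamini-Hochberg adjustment over all genes and a threshold of 0.05. A log2 fold change is on that scale, which understates low genes. The members and lists were chosen with earlier results of these data known. Named genes are the 10 members, listed genes with the largest or smallest arrest contrast or acting on a member, and the 2 nearest profiles per member. Alternatives were TMM, median-of-ratios and equal-total scaling, pseudocounts of 0.1 or 10, leaving the filter out, a filter on overall means under 100, fits of only the stages compared, edgeR 4.0.16 and DESeq2 1.42.0 on recovered reads, each library left out and, added later, a block on the column number. The methods were tested on simulated data. Promoters came from RefSeq (GRCm38.p6). Exon lengths came from GENCODE M21. Python 3.11.15 was used for the other steps.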

Additional observations from a re-analysis of the deposited data

How the results depend on the processing

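Each of the 10 genes in each of 7 contrasts gave 70 results, of which 54 passed the test. Of these, 43 kept direction and call under the 3 other scalings and 39 under all alternatives. Of the 16 that did not pass, 5 never passed under the 3 other scalings and 3 never passed under all alternatives. A change of sign between results that did not pass was not counted as a reversal. Cdkn1b at E16.5 against E13.5 (-0.16) was 0.055 with median-of-ratios factors and 0.34 with equal library totals. Rbl1 at P3 against E13.5 (-0.10) was 0.23 with equal library totals. Equal library totals reversed Cdkn2b at P0 against E16.5 to 0.14 (adjusted p 0.312), Cdkn2d there to 0.33 (adjusted p 0.0134), Cdkn1a there to 0.072 (adjusted p 0.645) and Rbl2 there to 0.56 (adjusted p 0.0206). They reversed Cdkn2a at P3 against P0 to -0.15 (adjusted p 0.628), Cdkn2d there to -0.24 (adjusted p 0.0582), Rb1 at P0 against E13.5 to 0.78 (adjusted p 4.7e-05) and Cdkn2a in the arrest contrast to 0.65 (adjusted p 0.00547). Median-of-ratios factors reversed Rb1 at P0 against E13.5 to 0.089 (adjusted p 0.504). The cause was not tested. Counts of members that passed, out of 10, lay with 1 library left out between 7 and 8 for E16.5 against E13.5, 6 and 7 for both later steps (P0 against E16.5, P3 against P0), 6 and 9 at P0 against E13.5, 6 and 8 at P3 against E16.5, 7 and 7 at P3 against E13.5, 8 and 8 in the arrest contrast, and 9 and 10 among stages. The column numbers 1, 3 and 4 recur at every stage but are not the labels' replicate numbers. Over 18 pairs of libraries with the same number, deviations from stage means correlated at -0.0356 to 0.0423 across genes, so the numbers were not taken to pair libraries. With them as a replicate block, chosen after seeing the data, no call for a member changed: 8 members passed at E16.5 against E13.5, 7 in P0 against E16.5, 7 in P3 against P0, and 8 in the arrest contrast. Depth limits Cdkn2a, Cdkn1b and Rbl2 most, which rest on as few as 37, 62 and 79 reads in a library. Amplified reads without molecular identifiers are not independent molecules.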
